A study of Arabidopsis thaliana and Lotus japonicus with 44 samples.

Results

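Of the 36796 Arabidopsis genes in the count files, 55 nuclear genes that encode parts of the photosynthetic apparatus were followed in roots. They were chosen by name: 12 light-harvesting proteins of photosystem II, 4 light-harvesting proteins of photosystem I, 9 subunits of photosystem II, 12 subunits of photosystem I, 6 carriers of photosynthetic electron transfer, 2 subunits of the chloroplast ATP synthase, 4 Rubisco small subunits and 6 other genes of the Calvin cycle. Read pairs were counted per transcript by the authors and summed per gene here, and 38 of the 55 genes reached 10 counts in at least 1 of 30 libraries, as did 16540 of the 36796 genes. Most of the 38 genes were lower with AMF in line 308, which expresses a fragment of the symbiosis transcription factor IPD3, than in wild type, and lower on low-nutrient medium in both genotypes tested there. Without AMF, 36 of the 38 fold changes of line 308 were also below 0, with 5 genes called. No difference in the response to AMF was called between line 308 and wild type. Line 310, a second line with the fragment, gave no call against wild type. With AMF, 37 of its 38 fold changes were below 0.

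Light-harvesting proteins bind chlorophyll and pass absorbed light energy to the photosystems, which drive electrons from water through plastocyanin and ferredoxin to NADP, while the ATP synthase uses the proton gradient and the Calvin cycle fixes carbon dioxide. The nucleus encodes all of the light-harvesting proteins and many of the photosystem subunits, whose proteins are imported into plastids. Root plastids are mostly not green, but roots of Arabidopsis that receive light can form some chlorophyll, and GLK, GATA and HY5 transcription factors are known to promote these genes in roots as well as in leaves.

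The 30 libraries came from roots of 6-week-old plants grown on plates, and each held the pooled roots of 5 seedlings from 1 plate. Plants had received about 200 germinated spores each of *R. irregularis*, an arbuscular mycorrhizal fungus (AMF), or a mock treatment with sterile water, 48 h before collection. Black cardboard sleeves shaded the roots, the day held 16 h of light and 8 h of dark, and roots were taken 4 to 6 h after the light came on. On half-strength MS medium there were 4 libraries of Col-0 -AMF and 4 of Col-0 +AMF, 4 of line 308 -AMF and 4 of line 308 +AMF, and 3 of line 310 -AMF and 3 of line 310 +AMF. Low-nutrient (LN) medium, with 0.5% of the phosphate, 1% of the nitrogen and 1% of the potassium of the standard medium, was used for 5 libraries of Col-0 +AMF LN and 3 of line 308 +AMF LN, and no LN group without AMF was analysed here. Col-0 is the wild type. Lines 308 and 310 are independent homozygous lines in Col-0 that express IPD3Min, the DNA-binding part of *Medicago* IPD3, from the broadly active Arabidopsis UBIQUITIN10 promoter, together with an mCherry marker that Col-0 lacks. The effect of IPD3Min and that of the insertion site cannot be told apart within 1 line. Each library was taken as 1 replicate. Where replicates shared conditions on the bench, p-values measure only the spread between these pools.

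Total counts ran from 13125046 to 14790061 per library. Values are CPM, counts scaled by TMM to a common library total, and differences were tested with edgeR's quasi-likelihood test over 16540 genes, each comparison on its own groups, with a call at an adjusted p under 0.05 (Benjamini-Hochberg). Log2 fold changes are given ± SE. Of 12 markers of root tissues, 11 reached 10 counts and none was at 0 throughout. Of 14 shoot markers, 3 reached 10 counts, namely the stomatal receptor gene TMM, ATML1 and PDF1, and 7 were at 0 in every library. These 7 have several annotated transcripts, whose shared read pairs were not counted, so their zeros say nothing of expression. Of the markers with 1 transcript, YAB2 and GL1 stayed at or below 2 and 1 counts. Further genes of the stomatal lineage and the shoot meristem, chosen after the data had been seen, had at most 3 counts for EPFL9, 1 for EPF1, 2 for EPF2, 0 for MUTE, 29 for KAT1, 6 for STM and 3 for CUC3.

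A few libraries stood apart from their groups over most of the 38 genes. In line 308 -AMF, 36 of the 38 genes lay above their own mean over all libraries in replicate 1, against 3, 5 and 4 genes in replicates 2, 3 and 4. In line 310 +AMF, 38 genes lay above their mean in replicate 3, against 11 and 3 in replicates 1 and 2. Col-0 +AMF LN replicate 5 and line 308 +AMF LN replicate 3 were the lowest of their groups. The LN libraries also carry 2 forms of name, with and without the prefix R-. The form without it was found for Col-0 +AMF LN replicates 1 and 3 and line 308 +AMF LN replicate 3 alone. Counts and medians that these libraries move by over 1.5 times are given with and without them. Shares over all genes belong to edgeR's quasi-likelihood test on all libraries of the groups. Counts from other fits show only how far a result depends on the fit.

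The counting rule decided which of the genes could be measured. Pairs that overlap several annotated transcripts were not counted, so genes with more than 1 annotated transcript lost most of their pairs. Of the 17 genes that did not reach 10 counts, 16 have several transcripts and held at most 5 counts in any library, namely LHCB4.2, LHCA1, LHCA3, RBCS1A, RBCS1B, RBCS3B, PSAL, PSAN, PSBP1, PSBQ1, PSBQ2, PETC, PETE1, LFNR1, RCA and FBP. Their low counts say nothing of their expression. The other one is RBCS2B, a Rubisco small subunit with 1 transcript, whose highest count was 3 (median 0), although every 100-base window of its transcript occurs in no other gene. Just inside the limit were LFNR2, a ferredoxin-NADP reductase with several transcripts and at most 18 counts, and LHCB1.4 with at most 70 counts, and just outside it was FBP with at most 5. LFNR2 and LHCB1.4 passed only through the groups in which they were higher, so a call for either is no independent result, and counts of calls are also given over the other genes. The other 36 genes had 10 or more counts in every library, with a lowest value of 37.

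The 5 copies of LHCB1, described here in most detail, encode the main protein of the light-harvesting complex of photosystem II. LHCB1.2 (AT1G29910, chr1:10472280-10473502, minus strand), LHCB1.1 (AT1G29920, chr1:10474656-10475969, minus strand) and LHCB1.3 (AT1G29930, chr1:10477885-10479114, plus strand) lie side by side, and LHCB1.5 (AT2G34420, chr2:14522524-14523568, minus strand) and LHCB1.4 (AT2G34430, chr2:14524607-14525918, plus strand) are divergent neighbours. All coordinates are of TAIR10 with Araport11. Close copies could be miscounted, but between 95.6% and 98.5% of the 100-base windows of each LHCB1 transcript occur in no other gene, and the longest run shared by any pair was 122 bases, between LHCB1.4 and LHCB1.5.

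The 250 bases before the annotated start of these 5 genes and of ATPC1 (AT4G04640), the gamma subunit of the chloroplast ATP synthase and the gene with the largest decrease in Col-0 on LN medium, are shown so that the copies, whose levels and fold changes are set side by side below, can be compared. They were read from the RefSeq copy of TAIR10.1, in which 54 of the 55 genes and 99.5% of all genes have the coordinates of Araport11. Capitals mark matches to 5 motifs searched on both strands, none of which contains another: the G-box CACGTG, the I-box GATAAG, the promoter element CCAATC, the evening element AAAATATCT and the CCA1 site AAAAATCT.
LHCB1.1: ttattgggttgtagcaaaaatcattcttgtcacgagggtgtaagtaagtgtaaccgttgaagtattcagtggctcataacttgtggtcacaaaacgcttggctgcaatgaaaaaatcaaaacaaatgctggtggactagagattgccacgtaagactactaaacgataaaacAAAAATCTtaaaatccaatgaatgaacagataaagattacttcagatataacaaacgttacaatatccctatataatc
LHCB1.2: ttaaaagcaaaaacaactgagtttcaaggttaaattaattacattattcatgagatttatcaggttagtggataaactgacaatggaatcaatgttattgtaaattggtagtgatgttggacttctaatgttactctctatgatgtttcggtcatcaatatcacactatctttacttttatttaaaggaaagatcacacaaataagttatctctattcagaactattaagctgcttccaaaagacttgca
LHCB1.3: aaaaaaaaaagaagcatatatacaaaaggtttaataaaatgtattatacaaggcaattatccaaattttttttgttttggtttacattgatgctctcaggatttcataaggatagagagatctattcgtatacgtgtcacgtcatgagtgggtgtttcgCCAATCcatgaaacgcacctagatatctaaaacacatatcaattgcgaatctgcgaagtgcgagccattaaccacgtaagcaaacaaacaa
LHCB1.4: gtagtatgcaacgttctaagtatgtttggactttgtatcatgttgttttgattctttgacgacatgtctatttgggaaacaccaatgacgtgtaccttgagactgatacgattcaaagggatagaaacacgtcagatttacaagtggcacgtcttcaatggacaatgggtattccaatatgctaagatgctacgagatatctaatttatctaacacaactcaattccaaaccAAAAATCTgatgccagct
LHCB1.5: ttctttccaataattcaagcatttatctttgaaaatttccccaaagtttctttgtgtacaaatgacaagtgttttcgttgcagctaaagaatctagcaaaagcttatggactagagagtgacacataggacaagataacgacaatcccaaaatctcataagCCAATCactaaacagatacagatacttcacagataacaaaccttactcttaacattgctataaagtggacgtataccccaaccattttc
ATPC1: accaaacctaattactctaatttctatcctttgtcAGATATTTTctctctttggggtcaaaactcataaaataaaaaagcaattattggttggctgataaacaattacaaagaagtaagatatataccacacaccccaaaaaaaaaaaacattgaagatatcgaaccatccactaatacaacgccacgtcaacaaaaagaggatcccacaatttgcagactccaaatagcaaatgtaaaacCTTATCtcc
The windows lie at chr1:10475970-10476219, chr1:10473503-10473752, chr1:10477635-10477884, chr2:14524357-14524606, chr2:14523569-14523818 and chr4:2352019-2352268, in the order shown. LHCB1.3 and LHCB1.5, the copies with the highest counts, hold CCAATC from 91 to 86 and from 89 to 84 bases before the start. LHCB1.1 and LHCB1.4 hold a CCA1 site from 78 to 71 and from 18 to 11 bases before it, and the window of LHCB1.2 holds none of the 5. ATPC1 holds the only evening element among the 55 genes and an I-box close to the start.

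Over all 55 genes, a G-box was found in 11 windows, an I-box in 16 (29.1%), CCAATC in 14 (25.5%), an evening element in 1 (1.8%) and a CCA1 site in 5 (9.1%). The shares among 27443 promoters of the same length were 6.5% for the G-box, 12.3% for the I-box, 10.2% for CCAATC, 2.4% for the evening element and 6.7% for the CCA1 site. These are matches of letters, not sites of binding.

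In roots of Col-0 -AMF, levels per kb of transcript, which can be compared between the 36 genes with 1 annotated transcript, ranged from 945 CPM per kb for LHCB1.3 to 3.38 for LHCB1.4. LHCB1.5 stood at 427 CPM per kb, followed by LHCA4 (209), a light-harvesting protein of photosystem I, LHCB3 (137), PSBX (127), a small subunit of photosystem II, and FD2 (125), the main leaf ferredoxin. The lowest levels after LHCB1.4 were those of SBPASE (4.11), a phosphatase of the Calvin cycle, GAPB (10.4), a subunit of the plastid glyceraldehyde-phosphate dehydrogenase, and LHCB1.1 (11.7). Copies of 1 family thus spanned the whole range, with LHCB1.2 at 48.4 CPM per kb between them.

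The summed level of the 38 genes was highest in Col-0 +AMF and lowest in line 308 on LN medium. It averaged 3959 ± 357 CPM (SD, n = 4) in Col-0 -AMF and 4761 ± 229 (n = 4) in Col-0 +AMF. Line 308 -AMF stood at 2661 ± 1078 (n = 4), with 4236 in replicate 1 and between 1886 and 2473 in the other replicates, and line 308 +AMF at 2435 ± 364 (n = 4). In line 310 the mean was 4165 ± 1086 (n = 3) without AMF and 3026 ± 1098 (n = 3) with AMF, with 4272 in replicate 3 of the latter against 2607 and 2200. On LN medium it was 1990 ± 204 (n = 5) in Col-0 and 1340 ± 194 (n = 3) in line 308. All libraries of line 308 +AMF lay below all of Col-0 +AMF, and both LN groups lay below their counterparts on standard medium. LHCB1.3 and LHCB1.5 weigh heavily in this sum, with 1059 to 1268 and 407 to 488 CPM in Col-0 -AMF. Of the 38 log2 fold changes with AMF in Col-0, 10 were below 0, although the sum was higher. Fewer green cells and less RNA per cell cannot be told apart in pooled roots.

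**Figure D1:**
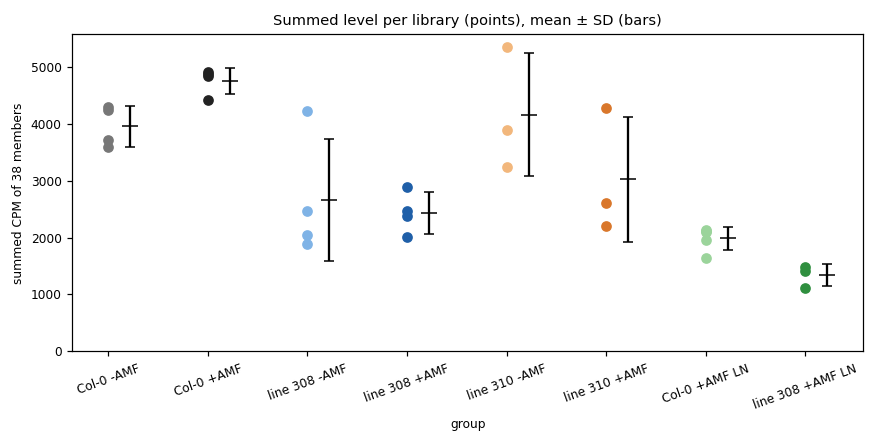
Summed CPM of the 38 genes in each library (points) with the mean ± SD of the group beside them (bars), for the 8 groups. Col-0 +AMF libraries lie between 4420 and 4907, line 308 +AMF between 2010 and 2895, Col-0 +AMF LN between 1646 and 2135 and line 308 +AMF LN between 1120 and 1484.

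**Figure D2:**
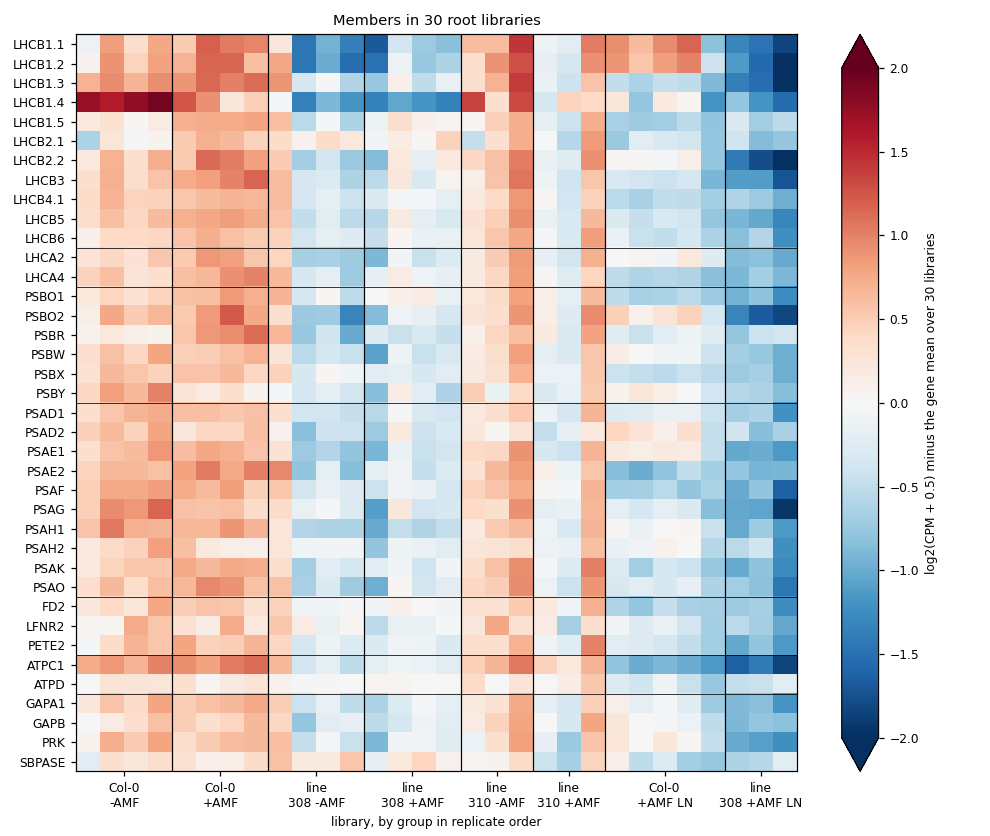
Log2(CPM + 0.5) of each of the 38 genes minus its mean over 30 libraries (colour, red high and blue low), with genes in rows by role and libraries in columns by group. Most rows are red in Col-0 on standard medium and blue in line 308 and on LN medium, with line 308 -AMF replicate 1 and line 310 +AMF replicate 3 red within paler groups.

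Low-nutrient medium went with lower levels of nearly all of these genes in Col-0. Of the 38 genes, 34 were called lower and none higher in Col-0 +AMF LN against Col-0 +AMF, where 16.5% of all genes tested were called lower. Over the 36 genes with 10 or more counts in every library the number was 32. The median log2 fold change was -1.02 for the 38 genes and 0.01 over all genes. The groups did not overlap for 34 of the 38, LHCB1.4 and LFNR2 among them. How often this held over all genes was not counted, so the number is a description only. By role, 9 of 11 light-harvesting proteins of photosystem II were called, both of photosystem I and 5 of 6 photosystem II subunits. So were 9 of 10 photosystem I subunits, 3 of 3 electron carriers, both ATP synthase subunits and 4 of 4 Calvin cycle genes. The light-harvesting proteins called include LHCB1.4 and the electron carriers LFNR2, whose calls are no independent result. With both genes kept in, the median log2 fold change of a role ran from -1.29 for the ATP synthase and -1.21 for light harvesting II to -0.63 for the Calvin cycle.

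ATPC1 showed the largest decrease. It had 73.04, 67.3, 78.7 and 82.9 CPM in Col-0 +AMF and 21.8, 18.9, 20.1, 18.96 and 16.9 CPM on LN medium, so that the lowest library on standard medium lay above the highest on LN (log2 fold change -1.97 ± 0.09, adjusted p = 3.31e-08). ATPD, the delta subunit of the same enzyme, fell too, from 28.03, 22.9, 25.4 and 27.2 CPM to 18.4, 16.8, 20.75, 16.2 and 13 CPM (log2 fold change -0.61 ± 0.13, adjusted p = 0.00251). LHCB1.3 had 1215, 1451, 1319 and 1435 CPM on standard medium against 469, 426, 476.5, 461 and 357 CPM on LN (log2 fold change -1.64 ± 0.10, adjusted p = 2.29e-07). LHCB1.5 fell in the same way and also without overlap of the groups, from 648, 663, 657 and 679.5 CPM to 251, 242, 243, 273.5 and 228 CPM (log2 fold change -1.42 ± 0.07, adjusted p = 5.11e-08). Other light-harvesting proteins that fell were LHCA4 (-1.43 ± 0.10), LHCB3 (-1.41 ± 0.13), the minor antenna proteins LHCB4.1 (-1.21 ± 0.07), LHCB5 (-1.21 ± 0.09) and LHCB6 (-1.02 ± 0.09), LHCB2.1 (-1.11 ± 0.14), LHCB2.2 (-1.01 ± 0.17) and LHCA2 (-0.71 ± 0.11).

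LHCB1.1 and LHCB1.2, the neighbours of LHCB1.3, were not called. LHCB1.1 had 15.4, 25.2, 22.45 and 21.6 CPM on standard medium and 20.9, 16.9, 20.96, 24.7 and 5.85 CPM on LN, with overlapping groups (log2 fold change -0.26 ± 0.31, adjusted p = 0.5595). For LHCB1.2 the values were 63.8, 88.4, 88.4 and 59.5 CPM against 72.3, 57.7, 69.9, 78.7 and 29.1 CPM (log2 fold change -0.29 ± 0.24, adjusted p = 0.367). In both genes 4 LN libraries lay within or close to the range of standard medium and replicate 5 lay below it. The difference between these copies and LHCB1.3 was not tested.

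Among photosystem subunits, PSAE2, which helps ferredoxin to dock on photosystem I, fell most, from 21.6, 25.6, 21.02 and 25.1 CPM to 6.53, 5.85, 6.82, 8.48 and 7.36 CPM (log2 fold change -1.74 ± 0.13, adjusted p = 1.18e-06). Its close copy PSAE1 also fell (-0.64 ± 0.13). PSBR, a small subunit near the oxygen-evolving site, went from 115, 142, 148 and 169 CPM to 65.35, 56.8, 66.4, 72.1 and 65.98 CPM (log2 fold change -1.14 ± 0.11, adjusted p = 1.04e-05), again without overlap. PSBO1, the manganese-stabilising protein of photosystem II, fell (-1.31 ± 0.08), as did its copy PSBO2 (-0.68 ± 0.18). PSAF (-1.35 ± 0.09), PSAK (-1.25 ± 0.11), PSAO (-1.13 ± 0.11) and PSBX (-1.04 ± 0.07) were called as well. PSAD2, another stromal docking subunit of photosystem I, gave 14.1, 16, 16.1 and 18.4 CPM against 16.3, 14.5, 12.9, 15.01 and 8.46 CPM and was not called (log2 fold change -0.27 ± 0.17, adjusted p = 0.231), and neither was PSBY (-0.19 ± 0.12). The electron carriers FD2 (-1.12 ± 0.08) and plastocyanin PETE2 (-1.02 ± 0.11) were called lower. LFNR2 was called too (-1.28 ± 0.38) but rests on at most 18 counts.

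In line 308 the same medium went with lower levels of 27 of the 38 genes and higher levels of none, where 15% of all genes were called lower. The median log2 fold change was -0.70, against 0.01 over all genes. The roles gave 8 of 11 light-harvesting proteins of photosystem II, both of photosystem I, 3 of 6 photosystem II subunits and 6 of 10 photosystem I subunits. They also gave 2 of 3 electron carriers, both ATP synthase subunits and 4 of 4 Calvin cycle genes. All 27 are among the 36 genes with 10 or more counts in every library. LHCB2.2, a second major antenna protein, fell most, from 18.6, 39.7, 29.99 and 39.4 CPM in line 308 +AMF to 12.5, 9.65 and 7.105 CPM on LN (log2 fold change -1.70 ± 0.27, adjusted p = 0.00145). ATPC1 was next, with 33.1, 35.7, 35.03 and 32.6 CPM against 11.9, 14.2 and 10.2 CPM (log2 fold change -1.49 ± 0.12, adjusted p = 3.85e-05). LHCB1.3 dropped from 388, 702, 463 and 596 CPM to 256, 228 and 108 CPM (log2 fold change -1.44 ± 0.28, adjusted p = 0.00421), its lowest library being replicate 3. PSBO2 had 7.94, 14.1, 13.3 and 11.6 CPM on standard medium and 5.685, 4.34 and 3.84 CPM on LN (log2 fold change -1.34 ± 0.22, adjusted p = 0.00171). In the genes named so far for line 308 the groups did not overlap. LHCB1.1 (-0.75 ± 0.30) and LHCB1.2 (-1.02 ± 0.38) were not called here either, and PSBR, called lower in Col-0, went from 65.1, 57.03, 62.7 and 56.6 CPM to 45.4, 57.75 and 60.2 CPM with overlap (log2 fold change -0.14 ± 0.11, adjusted p = 0.359). LHCB3 (-1.19 ± 0.20), PSBO1 (-1.02 ± 0.11), LHCB5 (-0.88 ± 0.16), PSAF (-0.87 ± 0.18), PRK (-0.86 ± 0.21), the Calvin cycle kinase that makes the substrate of Rubisco, and FD2 (-0.85 ± 0.13) were among the others called. Without line 308 +AMF LN replicate 3, 23 genes were called.

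The response to the medium differed between the genotypes for 6 of the 38 genes, all with a smaller decrease in line 308, where 2.60% of all genes had an interaction of that sign. With the difference of the log2 fold changes, line 308 minus Col-0, they were PSAE2 (1.11 ± 0.18, adjusted p = 0.00830), PSBR (1.02 ± 0.16, adjusted p = 0.00654), LHCB1.5 (0.86 ± 0.13, adjusted p = 0.00654), LHCA4 (0.69 ± 0.15, adjusted p = 0.0165), LHCB4.1 (0.60 ± 0.12, adjusted p = 0.0137) and PSBX (0.52 ± 0.11, adjusted p = 0.0152). The values of PSAE2 in line 308 were 10.5, 11.6, 8.67 and 9.94 CPM on standard medium and 6.89, 6.13 and 6.25 CPM on LN, so that the LN libraries of both genotypes overlapped, while on standard medium Col-0 lay higher. LHCB1.5 went from 369, 494, 423 and 410 CPM to 323, 244 and 274 CPM in line 308, whose LN libraries overlapped those of Col-0. With all 8 groups in a single fit none of the 6 was called, and with a common dispersion 6 genes were called, of which 4 were higher and 2 lower.

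The summed shoot markers were not lower on LN medium. The summed level of the 14 shoot markers was 47 to 95.9 CPM in Col-0 +AMF and 104 to 230 in Col-0 +AMF LN, and 90.2 to 146 and 154 to 176 in line 308, nearly all of it PDF1, a gene of the epidermis, which was called higher on LN in Col-0 (log2 fold change 1.07) and in line 308 (0.59). ATML1, another epidermal gene, with several transcripts and 3 to 22 counts, was called lower on LN in line 308 (-1.19). It passed the limit of counts only through libraries in which it was higher, so its call is no independent result. The 12 root markers summed to 15630 to 20020 CPM in Col-0 +AMF and 7287 to 9760 on LN, and to 14590 to 16950 and 5998 to 7333 in line 308. Nearly all of that is BGLU23, a beta-glucosidase of the endoplasmic reticulum bodies. Without BGLU23 the root markers summed to 485 to 575 and 561 to 731 CPM in Col-0, and 435 to 555 and 562 to 589 in line 308. The part of a change in tissue make-up in these results was not tested.

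Against Col-0, line 308 had lower levels of most of these genes where AMF was present. In line 308 +AMF, 32 of the 38 genes were called lower and none higher than in Col-0 +AMF, where 4.09% of all genes were called lower, and the median log2 fold change was -0.91, against 0.00 over all genes. Over the 36 genes with 10 or more counts in every library the number was 31. This comparison shares the Col-0 +AMF libraries with the medium comparison in Col-0 and the line 308 +AMF libraries with that in line 308. By role, 10 of 11 light-harvesting proteins of photosystem II were called, both of photosystem I, 5 of 6 photosystem II and 9 of 10 photosystem I subunits. So were 2 of 3 electron carriers, 1 of 2 ATP synthase subunits and 3 of 4 Calvin cycle genes. The light-harvesting proteins called include LHCB1.4, whose call is no independent result. The groups did not overlap for 34 of the 38 genes, LHCB1.4 and LFNR2 among them. That count was not made over all genes and is a description only. The summed shoot markers were at 47 to 95.9 CPM in Col-0 +AMF and 90.2 to 146 CPM in line 308 +AMF. Nearly all of that is PDF1 (mean 71.3 and 108.5 CPM), and the part of tissue make-up was not tested. Of 10 clock genes tested, 4 were called lower together with these genes, namely PRR5 (-1.22 ± 0.11), TOC1 (-0.51 ± 0.09), LUX (-0.59 ± 0.15) and ELF3 (-0.42 ± 0.09). The part of clock phase in the result was not tested.

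ATPC1 again gave the smallest p. It had 33.1, 35.7, 35.03 and 32.6 CPM in line 308 +AMF, all below the Col-0 +AMF values given above (log2 fold change -1.15 ± 0.08, adjusted p = 4.91e-05). PSAH1, a subunit at the docking site of the mobile antenna on photosystem I, had 8.865, 13.1, 11.9 and 12.99 CPM against 29.4, 29.3, 34.2 and 29.8 CPM (log2 fold change -1.39 ± 0.12, adjusted p = 0.000185), and PSBR (log2 fold change -1.25 ± 0.11, adjusted p = 0.000176), PSBX (-0.80 ± 0.07) and PSAE2 (-1.20 ± 0.12) were also lower. LHCB1.1, at 2.98, 8.07, 6.25 and 5.75 CPM in line 308, lay below every library of Col-0 +AMF (log2 fold change -1.88 ± 0.25, adjusted p = 0.00140). LHCB1.2 had 13.6, 35.95, 22.8 and 25.2 CPM there (log2 fold change -1.62 ± 0.24, adjusted p = 0.00288), LHCB1.3 gave -1.34 ± 0.16 and LHCB1.5 -0.65 ± 0.09. In LHCB1.1, LHCB1.2 and LHCB1.3 replicate 1 of line 308 +AMF was the lowest of its group and replicate 2 the highest. Other called genes included PSBO2 (-1.24 ± 0.19), PSAE1 (-1.14 ± 0.15), PSAO (-1.14 ± 0.18), LHCA2 (-1.10 ± 0.16), LHCB3 (-1.05 ± 0.15), PSBW (-1.02 ± 0.17), LHCB2.2 (-1.01 ± 0.21), LHCB5 (-0.96 ± 0.13), PSAF (-0.93 ± 0.10), PSAK (-0.92 ± 0.09), PSAD1 (-0.90 ± 0.10), GAPA1 (-0.90 ± 0.11), PSAG (-0.86 ± 0.21), LHCA4 (-0.86 ± 0.11), PRK (-0.84 ± 0.17) and PETE2 (-0.81 ± 0.10).

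The 6 genes without a call were ATPD, SBPASE, LHCB2.1, PSAH2, PSBY and LFNR2. ATPD had 23.2, 23.2, 22.3 and 22.4 CPM in line 308 +AMF, overlapping those of Col-0 +AMF (log2 fold change -0.19 ± 0.09, adjusted p = 0.233), although ATPD and ATPC1 encode subunits of 1 enzyme. SBPASE had the value nearest to 0 (log2 fold change -0.09 ± 0.15, adjusted p = 0.805). In the other 4 genes the log2 fold changes were -0.45 (LHCB2.1), -0.58 (PSAH2), -0.55 (PSBY) and -1.06 (LFNR2). Summed over close copies, LHCB1 as a family was lower in line 308 +AMF by a log2 fold change of -1.10 ± 0.13 (adjusted p = 0.000643) and LHCB2 by -0.88 ± 0.18 (adjusted p = 0.0159). The LHCB2 sum was not called without Col-0 +AMF replicate 3 (-0.84) or without line 308 +AMF replicate 3 (-0.85).

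**Figure D3:**
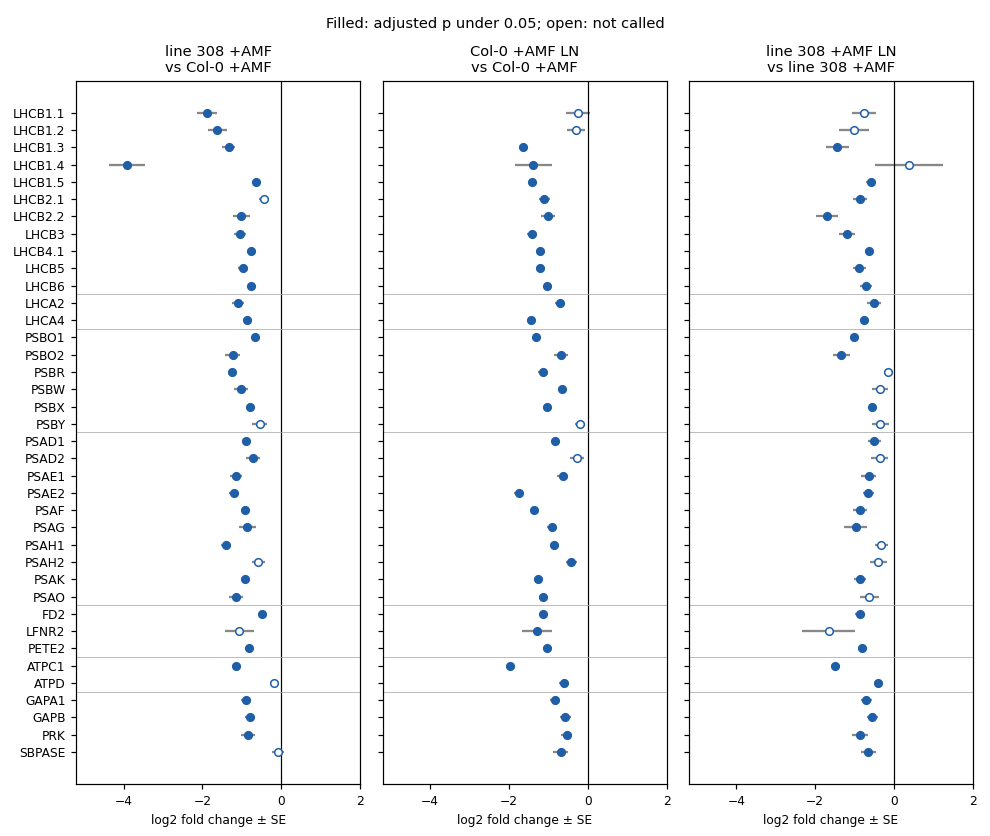
Log2 fold change ± SE (x axis) of each of the 38 genes (rows, by role) in 3 comparisons (panels), with filled points for an adjusted p under 0.05. In the panel of line 308 +AMF against Col-0 +AMF 32 points are filled, in that of Col-0 on LN medium 34 and in that of line 308 on LN medium 27, all to the left of 0.

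LHCB1.4 had few counts in line 308. Its counts per library were 62, 55, 63 and 70 in Col-0 -AMF and 43, 32, 17 and 20 in Col-0 +AMF. In line 308 they were 13, 1, 4 and 2 without AMF and 1, 3, 2 and 1 with AMF, so that no library reached the lowest of Col-0 on the same treatment. Line 310 had counts of 46, 19 and 45 without and 9, 21 and 20 with AMF, above line 308 +AMF throughout. On LN medium the counts were 15, 5, 16, 14 and 2 in Col-0 and 5, 2 and 0 in line 308, with overlap. The ratio of pooled counts of Col-0 to line 308 was 16.1 with AMF (95% interval 7.56 to 40.9) and 12.4 without AMF (95% interval 7.83 to 20.6), where the intervals cover counting error only. Since the gene passed the limit of 10 counts through the groups in which it was high, these values are a description and no test of the difference. LHCB1.5, its divergent neighbour, was called lower with AMF (log2 fold change -0.65) and not without AMF (log2 fold change -0.24 ± 0.23, adjusted p = 0.621).

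**Figure D4:**
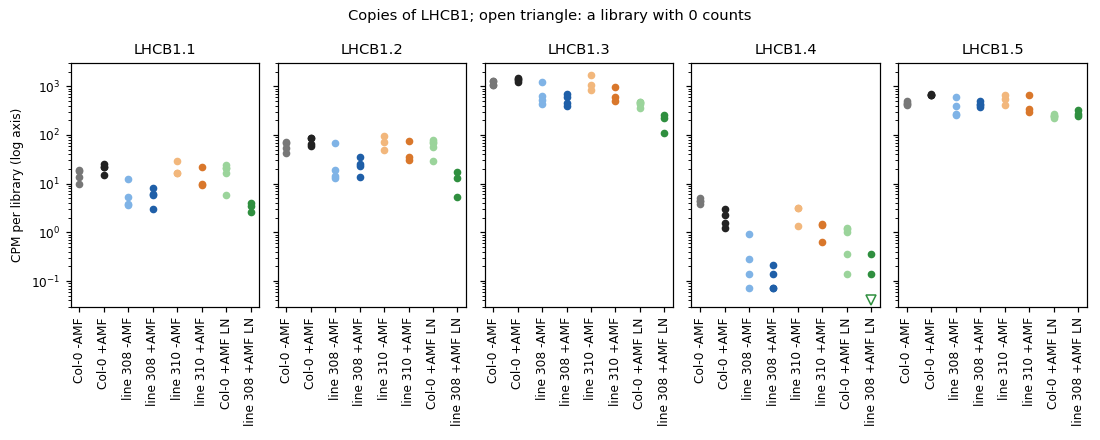
CPM per library (points, log axis) of the 5 copies of LHCB1 (panels) in the 8 groups, with an open triangle at the foot of the axis for a library with 0 counts. LHCB1.4 lies below 1 CPM in all libraries of line 308 and above 1 CPM in all libraries of Col-0 on standard medium, while LHCB1.1 and LHCB1.2 keep in Col-0 on LN medium a range close to that on standard medium, except in replicate 5.

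Without AMF, the number of genes called between line 308 and Col-0 depended on the test. By edgeR's quasi-likelihood test, called lower were LHCB1.4, PSAH1, PSBY, PSAD2 and PSAG, another photosystem I subunit, 5 of 38 genes where 1.07% of all genes were called lower, and none was higher. Without LHCB1.4 the number was 4. DESeq2 called 14 genes lower and a common dispersion 25, against 34 and 36 in the comparison with AMF. Calls over all genes are not given for these tests or for the fits with a library left out. The median log2 fold change was -0.61, with 36 of 38 values below 0. The values of PSAH1 were 27.35, 38.9, 30.35 and 29.7 CPM in Col-0 -AMF and 21.75, 12.1, 11.8 and 11.8 CPM in line 308 -AMF (log2 fold change -1.14 ± 0.21, adjusted p = 0.0235), and those of PSAD2 were 16.8, 18.8, 16.5 and 20.99 CPM and 12.7, 6.485, 8.79 and 8.68 CPM (log2 fold change -0.99 ± 0.18, adjusted p = 0.0261). In both genes the highest library of line 308 was replicate 1, still below every library of Col-0. PSBY (-0.98 ± 0.13) and PSAG (-0.90 ± 0.17) were similar. Without line 308 -AMF replicate 1 the count of called genes was 29 and the median -0.91. Without Col-0 -AMF replicate 1 it was 3, and without Col-0 -AMF replicate 2 or 3 or line 308 -AMF replicate 2, 3 or 4 it was 2. FD2 shows the pattern of that library, with 125, 85.9, 86.6 and 88.5 CPM in line 308 -AMF against 107, 120, 108 and 157 CPM in Col-0 -AMF.

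Line 310 gave no call against Col-0 in either treatment. Without AMF the median log2 fold change was 0.01 and no gene was called by edgeR, where 0.0121% of all genes were called in either direction. DESeq2 called none and a common dispersion 1. An unadjusted p under 0.05 was found for 4 of the 38 genes and for 1682 of all 16540. With smallest p came PSAD2 (log2 fold change -0.44 ± 0.12, adjusted p = 0.319), LHCB1.4 (log2 fold change -0.80 ± 0.28, adjusted p = 0.3965), PSBY (log2 fold change -0.48 ± 0.18, adjusted p = 0.4185) and PSBR (log2 fold change 0.27 ± 0.11, adjusted p = 0.468). With AMF the median was -0.55, with 37 of 38 values below 0 and no call by edgeR, where 0.0302% of all genes were called. DESeq2 called 5 genes and a common dispersion 12. An unadjusted p under 0.05 was found for 20 of the 38 genes and for 1601 of all 16540. LHCB1.3 gave 603, 491.5 and 973 CPM in line 310 +AMF, below every library of Col-0 +AMF, with replicate 3 highest (log2 fold change -0.97 ± 0.20, adjusted p = 0.208), and LHCA4 (log2 fold change -0.70 ± 0.16, adjusted p = 0.226), PSAE2 (log2 fold change -0.71 ± 0.17, adjusted p = 0.226) and LHCB3 (log2 fold change -0.87 ± 0.20, adjusted p = 0.226) came next by p. Without line 310 +AMF replicate 3, 15 genes were called lower and the median was -0.89. The number called over all genes in that fit is not given. A missing call in line 310 and the calls in line 308 do not show that the lines differ, and the lines were therefore compared directly.

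With AMF, ATPC1 was called lower in line 308 than in line 310. It was the only one called of the 36 genes with 10 or more counts in every library, and with LHCB1.4 the number was 2 of 38, where 0.242% of all genes were called lower. ATPC1 had 52.6, 44.3 and 61.4 CPM in line 310 +AMF, above every library of line 308 +AMF (log2 fold change -0.63 ± 0.11, adjusted p = 0.0412). Next by p were LHCB1.1 (log2 fold change -1.26 ± 0.36, adjusted p = 0.240) and PSAH1 (log2 fold change -0.81 ± 0.23, adjusted p = 0.245). The median was -0.44, and -0.07 without line 310 +AMF replicate 3. No gene was called when any 1 library of line 308 +AMF or line 310 +AMF replicate 3 was left out, and 1 was without line 310 +AMF replicate 1. Without AMF the median was -0.61 and no gene was called by edgeR, where 0.109% of all genes were called. DESeq2 called 2 and a common dispersion 22. An unadjusted p under 0.05 was found for 24 of the 38 genes and for 1298 of all 16540. The smallest p belonged to LHCB1.4 (log2 fold change -2.83 ± 0.60, adjusted p = 0.2435), LHCB1.1 (log2 fold change -1.73 ± 0.42, adjusted p = 0.332), PSAE1 (log2 fold change -1.01 ± 0.27, adjusted p = 0.407) and PSAK (log2 fold change -0.85 ± 0.23, adjusted p = 0.407). Without line 308 -AMF replicate 1, 14 genes were called lower and the median was -0.88. Here too the number called over all genes is not given.

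On LN medium, line 308 had lower levels than Col-0 of 21 of the 38 genes and higher levels of none, where 5.15% of all genes were called lower. The median log2 fold change was -0.63. Groups without overlap were found for 24 of the 38 genes, a description only, since this was not counted over all genes. LHCB1.1 differed most, with 4.05, 3.515 and 2.63 CPM in line 308 +AMF LN, below even the low replicate 5 of Col-0 +AMF LN (log2 fold change -2.36 ± 0.40, adjusted p = 0.0120). LHCB1.2 had 17.6, 12.96 and 5.33 CPM (log2 fold change -2.33 ± 0.38, adjusted p = 0.0104), also below all of Col-0. PSBO2 gave 5.685, 4.34 and 3.84 CPM against 20.8, 15.9, 17.8, 20.6 and 11.6 CPM (log2 fold change -1.88 ± 0.22, adjusted p = 0.00164). LHCB2.2, at 12.5, 9.65 and 7.105 CPM, lay below the Col-0 values of 34.8, 35.04, 33.4, 37.1 and 19.75 CPM (log2 fold change -1.69 ± 0.23, adjusted p = 0.00396). Of their close copies and other families, LHCB2.1 (-0.19 ± 0.19), LHCB1.5 (0.21 ± 0.10), PSBO1 (-0.35 ± 0.10) and PSAE2 (-0.10 ± 0.16) were not called, and PSAE1 was (-1.13 ± 0.17). Whether the copies differ from each other in this was not tested.

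PRK, at 7.32, 6.89 and 6.18 CPM in line 308 against 18.05, 15.1, 17.8, 15.4 and 10.9 CPM in Col-0 on LN, was the Calvin cycle gene with the largest difference (log2 fold change -1.16 ± 0.17, adjusted p = 0.00641), and GAPA1 (-0.75 ± 0.17) and GAPB (-0.76 ± 0.16) were called as well. LHCB1.3 (-1.12 ± 0.23), PSAG (-0.92 ± 0.22), LHCA2 (-0.87 ± 0.11), PSAH1 (-0.85 ± 0.15), LHCB3 (-0.82 ± 0.17), PSAD2 (-0.80 ± 0.21), PSBW (-0.71 ± 0.13), PSBY (-0.69 ± 0.14), ATPC1 (-0.65 ± 0.13), LHCB5 (-0.62 ± 0.13), PSAO (-0.62 ± 0.17), PETE2 (-0.57 ± 0.14) and PSAD1 (-0.55 ± 0.14) complete the 21. Of the 21, 6 kept their call in every fit checked gene by gene. Transcripts as the unit and the settings by form of name were not among these fits. The count depended on single libraries. It was 7 without line 308 +AMF LN replicate 3, 11 without replicate 1 of that group, 11 without Col-0 +AMF LN replicate 2, 9 without replicate 3 or 4 and 27 without replicate 5. With the R- named libraries alone, 2 of line 308 against 3 of Col-0, no gene was called and the median was -0.45, where edgeR called 13 of all genes. With the 2 forms of name fitted as a covariate, 19 genes were called. The LHCB1 sum differed by -0.61 ± 0.15 (adjusted p = 0.0324) and the LHCB2 sum by -1.26 ± 0.20 (adjusted p = 0.00856). The LHCB1 sum was not called without any 1 of Col-0 +AMF LN replicates 1 to 4 or line 308 +AMF LN replicates 2 and 3 (adjusted p = 0.0652 to 0.1115).

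Few genes were called between treatments with and without the fungus. In Col-0, LHCB1.5 and PSBR were called higher with AMF, 2 of 38 genes where 0.369% of all genes were called higher, and none was lower. DESeq2 called 6 higher and 2 lower, a common dispersion 3 and 2, the fit without a filter 2 and 2, and the single fit of all 8 groups none. LHCB1.5 rose from 452, 488, 407 and 440 CPM without AMF to the 648, 663, 657 and 679.5 CPM given above (log2 fold change 0.56 ± 0.07, adjusted p = 0.0151). PSBR rose from 82.5, 89.7, 84.2 and 81.8 CPM (log2 fold change 0.76 ± 0.11, adjusted p = 0.0162). Neither overlapped between the groups, and neither was called without Col-0 -AMF replicate 1 or 3 or Col-0 +AMF replicate 2 or 3, while 7 genes were called without Col-0 +AMF replicate 1. LHCB1.4 (log2 fold change -1.15 ± 0.25, adjusted p = 0.0666) and PSBY (log2 fold change -0.54 ± 0.12, adjusted p = 0.0723) came next by p and had the opposite sign. The median log2 fold change was 0.17, with 17 of the 38 genes at an unadjusted p under 0.05, against 2937 of all 16540.

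In line 308 no gene was called with AMF by edgeR, DESeq2 or a common dispersion. By edgeR, 0.0121% of all genes were called in either direction. None of the 38 had an unadjusted p under 0.05, against 1432 of all 16540. The median was -0.14, and 0.10 without line 308 -AMF replicate 1. PSAH2 (log2 fold change -0.32 ± 0.16, adjusted p = 0.603), PSBX (log2 fold change -0.29 ± 0.14, adjusted p = 0.609), LFNR2 (log2 fold change -0.74 ± 0.38, adjusted p = 0.631) and LHCB1.4 (log2 fold change -1.45 ± 0.80, adjusted p = 0.648) had the smallest p. In line 310 the median was -0.34 with 37 of 38 values below 0. It was -0.69 without line 310 +AMF replicate 3, -0.18 without replicate 2 of that group and -0.20 without line 310 -AMF replicate 3. No gene was called by edgeR or DESeq2 and 1 was with a common dispersion, where edgeR called 0% of all genes. An unadjusted p under 0.05 was found for 2 of the 38 genes and for 545 of all 16540. LHCB1.3 (log2 fold change -0.82 ± 0.31, adjusted p = 1), LHCB1.4 (log2 fold change -1.11 ± 0.43, adjusted p = 1), LHCB3 (log2 fold change -0.58 ± 0.28, adjusted p = 1) and LHCA4 (log2 fold change -0.41 ± 0.20, adjusted p = 1) came first by p. LHCB1.3 had 834, 1067 and 1741 CPM without and 603, 491.5 and 973 CPM with AMF in line 310, and in both treatments replicate 3 was the highest.

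The AMF response was then compared between genotypes. For line 308 against Col-0, no interaction was called among the 38 genes by edgeR or DESeq2, and 2 were with a common dispersion. By edgeR, 0% of all genes were called. An unadjusted p under 0.05 was found for 2 of the 38 genes and for 1245 of all 16540. The median difference in log2 fold change was -0.30, and -0.01 without line 308 -AMF replicate 1. For line 310 the median was -0.55, with 34 of 38 values below 0. It was -0.85 without line 310 +AMF replicate 3 and -0.34 without replicate 2 of that group. No gene was called by edgeR or DESeq2 and 7 were with a common dispersion, where edgeR again called 0% of all genes. An unadjusted p under 0.05 was found for 14 of the 38 genes and for 1289 of all 16540. The smallest p, with the difference of the log2 fold changes, were those of LHCB2.1 (-0.78 ± 0.23, adjusted p = 0.428), PSBR (-0.91 ± 0.35, adjusted p = 0.5682), PSBX (-0.35 ± 0.18, adjusted p = 0.691) and LHCB6 (-0.39 ± 0.21, adjusted p = 0.7065) for line 308, and of LHCA4 (-0.79 ± 0.24, adjusted p = 0.542), PSAE2 (-0.73 ± 0.23, adjusted p = 0.542), LHCB3 (-1.02 ± 0.32, adjusted p = 0.542) and LHCB1.3 (-1.04 ± 0.33, adjusted p = 0.542) for line 310.

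Genes around the photosynthetic apparatus moved only in part with it. Of 13 genes of chlorophyll synthesis 8 reached 10 counts. In Col-0 on LN medium 5 of these 8 were called lower and none higher, where 16.5% of all genes were called lower. Among the 5 is PORB (-1.87 ± 0.38), with several transcripts and 0 to 11 counts. PORB passed the limit of 10 only through libraries in which it was higher, so its call is no independent result. The 4 with the smallest p were CHLD (-0.93 ± 0.09) and CHLI1 (-0.86 ± 0.09), subunits of magnesium chelatase, chlorophyll synthase CHLG (-0.94 ± 0.11) and the chelatase activator GUN4 (-1.02 ± 0.14). In line 308 on LN, CHLD (-0.75 ± 0.11), CHLG (-0.67 ± 0.12) and CHLI1 (-0.56 ± 0.11) were called lower, 3 of 8 where 15% of all genes were. Against Col-0, line 308 was called higher in CHLG both with AMF (0.42 ± 0.10) and on LN (0.70 ± 0.13), where none of the 38 genes was called higher. GUN4 was called lower with AMF (-1.02 ± 0.27), and HEMA1, which starts the pathway, on LN (-0.62 ± 0.17). Of 12 photorespiration genes 3 were tested. SHM1, the mitochondrial serine hydroxymethyltransferase, was called lower in line 308 with AMF (-0.62 ± 0.07), in Col-0 on LN (-0.50 ± 0.06) and in line 308 against Col-0 on LN (-0.29 ± 0.08), with an interaction of medium and genotype (difference 0.34 ± 0.09). GLDH1, of the glycine cleavage complex, was called lower in line 308 +AMF (-0.62 ± 0.15) and in Col-0 on LN (-0.73 ± 0.15), as was CAT2, a catalase, in Col-0 on LN (-1.29 ± 0.43). CAT2 has several transcripts and 4 to 28 counts. It passed the limit of 10 only through libraries in which it was higher, so its call is no independent result.

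FD3, the ferredoxin of non-green tissue, was at a mean of 430 to 543 CPM over the groups and was called higher only in Col-0 on LN (0.25 ± 0.07). RFNR1, its reductase, had 2 to 21 counts and was never called, and RFNR2 was at 0, both with several transcripts. Among relatives of the light-harvesting proteins, 7 of 9 were tested. ELIP1, an early light-induced protein, was called higher on LN in Col-0 (1.36 ± 0.38) and in line 308 (2.54 ± 0.31), ELIP2 in line 308 (0.91 ± 0.23), and LHCB4.3 in Col-0 (0.72 ± 0.17) and line 308 (1.06 ± 0.29), whereas LHCB4.3 was called lower in line 308 +AMF against Col-0 +AMF (-0.97 ± 0.25). Of 6 sigma factors of the plastid RNA polymerase 3 were tested. SIG6 was called lower on LN in Col-0 (-0.92 ± 0.12) and line 308 (-0.42 ± 0.12) and SIG2 in Col-0 (-0.41 ± 0.11). SIG4, with 0 to 26 counts, had a mean of 0.0177 CPM in line 308 +AMF against 1.06 in Col-0 +AMF, and of 0.0703 against 0.419 CPM on LN, and is given as a description, since it passed the limit only through groups in which it was high. Of the regulators named above, GLK1 was at 0, GLK2 reached 2 counts, GNC 7 and GNL 3, and HY5 had 8 to 54 counts and was not called in any comparison. HY5 and both GLK genes have several transcripts and so lost pairs to the counting rule.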

How the data were processed

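RNA from root pools of 5 seedlings was sequenced as strand-specific, poly-A selected, paired 100-base reads. The authors trimmed the reads, separated plant from fungal and construct reads (ambiguous reads were discarded) and made the deposited counts with featureCounts, as raw numbers of read pairs per transcript of Araport11 on TAIR10; pairs over more than 1 transcript were left out. The submitters' processing notes also list FastQC, HISAT2 and DESeq2. No column was left unmapped to a sample.

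Here transcript counts were summed per gene. The 16540 genes with 10 or more counts in at least 1 of 30 libraries were scaled by TMM and tested with edgeR 4.0.16 (R 4.3.3) by the quasi-likelihood F test, each of 12 comparisons on its own groups and 3 interactions on 4 groups each, with Benjamini-Hochberg adjustment over all genes and a call under 0.05. SE is the absolute log2 fold change over the square root of F. The study's methods use edgeR with a common dispersion, which is given as an alternative, beside DESeq2 1.42.0, no TMM, no filter, filterByExpr, transcripts as the unit, all 8 groups in a single fit, the replicate number as a block, the form of the library name as a covariate and each library left out. The scripts were tested on simulated data.

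The 55 genes and all gene lists were chosen with earlier results of these data known. Every one of the 55 genes could be named with its level. Called genes were described up to the 25 with the largest change in a comparison. Genes with the smallest p were added to make 4 where 3 or fewer were called. Of other lists up to 4 called genes were named by smallest p, and PORB besides for its low counts. Promoter windows of 250 bases were read from the RefSeq assembly by the coordinates of the annotation. No 2 replicates agreed within sampling noise (lowest chi-square per degree of freedom 6.09).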

Additional observations from a re-analysis of the deposited data

Results flagged for a closer look

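Of 85 groups of 4 or 5 libraries examined over the printed genes and their summed level, 8 held a library far from the others, and chance gives about 1 in 20. The summed level was lowest in Col-0 +AMF replicate 1, at 4420 CPM, with the nearest library at 4842. The median log2 deviation of the 38 genes from their own means was -0.677 in Col-0 +AMF LN replicate 5, against -0.318 in the nearest library, and LHCB2.2 was low in the same library (19.75 against 33.37 CPM). Line 308 -AMF replicate 1 was high in LHCB1.2 (66.88 against 19.35 CPM), PSAH1 (21.75 against 12.1 CPM) and FD2 (125.4 against 88.52 CPM). PSAH1 was high in Col-0 +AMF replicate 3 (34.2 against 29.79 CPM), and ATPD was low in Col-0 -AMF replicate 1 (22.57 against 26.51 CPM).

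The response to LN medium differed between line 308 and Col-0, by the interaction test of edgeR, in 6 genes, each falling less in line 308. The difference of the log2 fold changes was 1.106 for PSAE2, 1.024 for PSBR, 0.86 for LHCB1.5, 0.689 for LHCA4, 0.605 for LHCB4.1 and 0.517 for PSBX. In each of them Col-0 had the higher mean on standard medium.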

How the results depend on the processing

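No called difference of a gene reversed its direction in the fits checked gene by gene. Those fits did not include transcripts as the unit, the form of the library name as a covariate or R- names alone. Of the 32 genes called in line 308 +AMF against Col-0 +AMF, 26 kept their call in all of those fits. The numbers were 30 of the 34 in Col-0 on LN medium and 19 of the 27 in line 308 on LN medium. For line 308 against Col-0 on LN, 6 of the 21 did.

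Counts of called genes moved by more than 1.5 times as follows. Calls over all genes are mostly not given for these fits, so the counts show dependence on the fit alone. For AMF in Col-0 (2 called) DESeq2 gave 8, a common dispersion 5, no filter 4 and all 8 groups in a single fit 0. For line 308 against Col-0 without AMF (5) DESeq2 gave 14, a common dispersion 25, no TMM 8, no filter 10 and the single fit 11. For line 310 against Col-0 with AMF (0) DESeq2 gave 5 and a common dispersion 12. For line 308 against line 310 without AMF (0) DESeq2 gave 2, a common dispersion 22 and the single fit 1, and with AMF (2) a common dispersion gave 14, and filterByExpr and the single fit 1. Under a common dispersion 1 gene was called for AMF in line 310, 1 for line 310 against Col-0 without AMF, 2 for the interaction of AMF with line 308 and 7 for that with line 310. The single fit gave 0 interactions of medium (6). For line 308 against Col-0 on LN (21), libraries with R- names alone, a setting chosen after the data had been seen and with fewer samples, gave 0, and the sums of LHCB1 and LHCB2 were then -0.408 (adjusted p = 0.383) and -1.084 (adjusted p = 0.215). The LHCB1 sum was -0.634 in the single fit (adjusted p = 0.0817). Other causes were not tested.

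With single libraries left out, the counts were 0 to 7 for AMF in Col-0, 2 to 29 for line 308 against Col-0 without AMF, 0 to 15 for line 310 against Col-0 with AMF, 0 to 14 and 0 to 2 for line 308 against line 310 without and with AMF, and 7 to 27 for line 308 against Col-0 on LN. The LHCB2 sum ran from -0.995 to -0.725 in line 308 +AMF against Col-0 +AMF and the LHCB1 sum from -0.773 to -0.465 in line 308 against Col-0 on LN.

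Libraries with the same replicate number deviated together weakly or not at all (correlations of -0.317 to 0.248, in no comparison all above 0.1). In no comparison did every library correlate best with its own number. In line 308 +AMF against Col-0 +AMF, 3 of 4 did, with correlations of 0.013 to 0.15. There the SE of the LHCB1 sum was 0.093 with the replicate number as a block and 0.126 without. With the replicate number as a block, 0 genes were called in line 308 +AMF against line 310 +AMF, and in the other comparisons the block left the count within 1.5 times.

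The counting rule left 16 of the 55 genes with several transcripts below 10 counts, and at 0 to 70 counts LHCB1.4 and LFNR2 carry large counting error.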

Other observations

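Clock genes, of which 10 of 14 were tested, were called lower with AMF in Col-0 for PRR5 (-0.82 ± 0.12), GI (-0.43 ± 0.07), ELF4 (-1.29 ± 0.23) and TOC1 (-0.53 ± 0.10), and PRR5 also in line 308 (-1.02 ± 0.13). The same 4 genes were called lower in line 308 than in Col-0 without AMF (PRR5 -1.02 ± 0.14, ELF4 -1.34 ± 0.19, TOC1 -0.68 ± 0.11, GI -0.38 ± 0.08), and PRR5 (-1.22 ± 0.11), TOC1 (-0.51 ± 0.09), ELF3 (-0.42 ± 0.09) and LUX (-0.59 ± 0.15) with AMF. The mean of PRR5 ran from 92.7 CPM in Col-0 -AMF to 22.6 CPM in line 308 +AMF. On LN medium PRR5 (-0.70 ± 0.14) and RVE8 (-1.40 ± 0.50) were called lower in Col-0, while in line 308 LNK2 (-1.25 ± 0.28) and PRR7 (-1.28 ± 0.38) were lower and ELF4 was higher (1.29 ± 0.30). LNK2 was called lower in line 308 than in Col-0 on LN (-1.24 ± 0.31). RVE8 (1 to 13 counts), PRR7 (1 to 20) and LNK2 (8 to 51) have several transcripts and lost pairs to the counting rule. RVE8 and PRR7 passed the limit of 10 counts only through libraries in which they were high, so their calls are no independent result.

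Root markers moved on LN medium as well. COBL9 and EXPA7, genes of root hairs, were called higher in Col-0 (0.91 ± 0.21 and 0.81 ± 0.22), with SHR (0.30 ± 0.09), and BGLU23 was lower (-1.07 ± 0.12). In line 308, BGLU23 was lower (-1.32 ± 0.11), and PLT1 (0.56 ± 0.13) and PLT2 (0.50 ± 0.10), which act in the root meristem, EXPA7 (0.93 ± 0.25) and COBL9 were higher. ELIP1 had its highest means on LN, at 70.7 CPM in Col-0 and 134 CPM in line 308, against 14.04 to 33.4 CPM in the other groups.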
